A study of Homo sapiens with 9 samples.

Results

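The replication-dependent histone genes are the clustered genes that supply the linker histone H1 and the core histones H2A, H2B, H3 and H4 while DNA is copied. Members were the genes with a RefSeq mRNA probe on the array and a current symbol of the series H1-1 to H1-6, H2AC, H2BC, H3C or H4C. The rule used names only and no measured value. It found 65 genes with 76 probes, among 42405 gene probes. Of these, 62 genes were tested among 21817 genes in all: 5 of 6 H1 genes, 15 of 15 H2A, 17 of 18 H2B, 12 of 12 H3 and 13 of 14 H4. H1-6, H2BC1 and H4C7 were not well above background on all 3 arrays of any group and were not tested. The probes of 59 members were well above background on all 9 arrays.

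Gene expression was measured in A2780 cells, a human ovarian carcinoma cell line, in 3 groups of 3 arrays with a single dye: untreated cells (0 nM), cells given 8 nM DIG-MSK for 24 h and cells given 80 nM DIG-MSK for 24 h. DIG-MSK is an analogue of mithramycin, an antibiotic that binds GC-rich DNA and interferes with transcription factors of the Sp family. The replicates of a group are given as separate cultures of the one line by the study's methods. Slide 1 carried the arrays of untreated cells and of 8 nM, and slide 2, from another scan, carried those of 80 nM. Slide and dose cannot be told apart for 80 nM. Of 7 markers of ovarian carcinoma epithelium, EPCAM, KRT8 and KRT18 were well above background on all 9 arrays, PAX8 on 3, and CDH1, MUC16 and WT1 on none. PTPRC and CD14 of the leukocytes, CDH5 of the endothelium and DCN of the fibroblasts were also well above background on 9 arrays. The 2 fibroblast markers tested fell at 80 nM, with log2 changes of -1.39 (DCN) and -6.5 (PDGFRA), and their part in any result below was not tested.

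Histone mRNAs of this class are made in S phase, when NPAT at the histone locus body and factors such as HINFP and the octamer-binding protein POU2F1 switch their genes on. They have no introns, and most end not in a poly(A) tail but in a short stem-loop, which SLBP binds and the U7 particle with LSM10, LSM11 and ZNF473 helps to cut. When DNA synthesis stops, the stem-loop mRNAs are degraded quickly, with UPF1 taking part. Replication-independent variants such as H2AZ1 and H3-3B have ordinary polyadenylated mRNAs and are made throughout the cell cycle. In bulk RNA, fewer cells in S phase and less histone mRNA per cell cannot be told apart. Which share of each level came from polyadenylated transcripts was not measured, and the labelling kit that the methods name differs from the kit in the labels. Many members are near-identical copies, and which copies a probe reads was not analysed here.

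The promoters of 6 members are shown, from the RefSeq promoters of build GRCh38.p14, which run from 250 bases before to 50 bases after the start. H1-1, H4C11, H3C15 and H2BC26 were chosen for their fitted falls at 80 nM, of which that of H1-1 is known only as a bound. H2BC12, with 1 of its 2 entries, is the H2B member with the largest rise, and H2AC13 is 1 of a pair of H2A and H2B genes that are read outward from neighbouring starts. Each is given from 5′ to 3′ on the strand of its gene. Capitals mark the motifs searched on both strands: TATAAA (the TATA box), CCAAT (the CCAAT box), GGGCGG (the core of the GC box), ATTTGCA (part of the octamer), AAACACA (the H1 box), TTTCGCG (an E2F motif) and TTTGGCG (another E2F motif).
H1-1, chr6:26017738-26018037, minus strand: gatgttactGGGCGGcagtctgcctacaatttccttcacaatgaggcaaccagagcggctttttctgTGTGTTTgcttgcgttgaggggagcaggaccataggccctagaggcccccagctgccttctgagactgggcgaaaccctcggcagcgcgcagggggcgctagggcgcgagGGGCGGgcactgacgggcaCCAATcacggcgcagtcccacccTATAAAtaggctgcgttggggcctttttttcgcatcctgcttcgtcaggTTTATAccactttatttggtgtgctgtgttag
H4C11, chr6:27823842-27824141, plus strand: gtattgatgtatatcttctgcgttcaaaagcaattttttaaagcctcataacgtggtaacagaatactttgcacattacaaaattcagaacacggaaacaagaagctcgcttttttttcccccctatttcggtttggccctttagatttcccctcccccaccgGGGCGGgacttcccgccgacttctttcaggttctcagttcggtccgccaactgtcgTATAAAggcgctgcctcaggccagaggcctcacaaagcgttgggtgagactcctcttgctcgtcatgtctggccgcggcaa
H3C15, chr1:149852358-149852657, plus strand: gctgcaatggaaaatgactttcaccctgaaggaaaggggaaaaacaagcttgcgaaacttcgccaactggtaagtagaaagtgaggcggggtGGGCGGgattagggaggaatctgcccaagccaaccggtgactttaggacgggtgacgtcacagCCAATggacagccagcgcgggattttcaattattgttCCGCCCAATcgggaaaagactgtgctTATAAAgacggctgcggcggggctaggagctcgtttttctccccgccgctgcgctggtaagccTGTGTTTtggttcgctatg
H2BC26, chr1:228457853-228458152, plus strand: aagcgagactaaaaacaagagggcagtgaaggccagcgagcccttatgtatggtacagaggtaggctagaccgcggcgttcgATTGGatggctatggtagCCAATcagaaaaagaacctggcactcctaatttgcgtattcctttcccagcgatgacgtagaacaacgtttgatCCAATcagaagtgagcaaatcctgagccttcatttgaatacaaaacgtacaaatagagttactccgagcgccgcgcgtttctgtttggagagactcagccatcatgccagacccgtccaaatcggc
H2BC12, chr6:27146806-27147105, minus strand: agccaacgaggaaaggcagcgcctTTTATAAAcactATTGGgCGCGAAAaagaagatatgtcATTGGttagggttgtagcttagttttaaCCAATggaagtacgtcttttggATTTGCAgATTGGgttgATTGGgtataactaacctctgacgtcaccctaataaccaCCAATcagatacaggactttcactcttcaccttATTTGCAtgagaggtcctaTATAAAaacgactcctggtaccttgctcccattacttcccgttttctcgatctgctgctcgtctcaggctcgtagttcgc
H2AC13, chr6:27807923-27808222, plus strand: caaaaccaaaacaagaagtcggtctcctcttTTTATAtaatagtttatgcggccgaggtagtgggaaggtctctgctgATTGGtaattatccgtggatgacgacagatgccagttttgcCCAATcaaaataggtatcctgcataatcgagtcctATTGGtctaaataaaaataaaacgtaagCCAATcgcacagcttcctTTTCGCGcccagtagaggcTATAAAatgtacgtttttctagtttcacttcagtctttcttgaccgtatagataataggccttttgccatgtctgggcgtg

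The H1-1 promoter joins the H1 box to 2 GC boxes, H4C11 has a GC box and no CCAAT, and the H2A and H2B promoters shown have several CCAAT motifs and no GC box. In all, 60 of 65 members had an entry, 4 of them with 2 starts, which gave 64 promoters. H2AC12, H3C11, H3C12, H4C1 and H4C3 had none. The C+G content had a median of 42.8% in these promoters and 58.7% in all 35114 promoters of the table. TATAAA was in 65.6% of members' promoters and in 11.5% of all, and CCAAT in 85.9% and 34.6%. GGGCGG was in 25% of members' promoters and in 45% of all. The motifs followed the families: CCAAT was in every H1, H2A, H2B and H3 promoter (6, 14, 20 and 12) but in 3 of 12 H4 promoters. ATTTGCA was in 10 of 14 H2A and 15 of 20 H2B promoters, in 2 of 12 H3 promoters and in no H1 or H4 promoter, against 4.2% of all. Of these 2 H3 entries, that of H3C4 is its second start, and it is the same stretch of chromosome 6 as the H2AC7 entry. The H1 box was in 6 of 6 H1 promoters and in 5.64% of all. GGGCGG was in 4 of 6 H1 and 7 of 12 H4 promoters, and in 1 of 14 H2A and 1 of 20 H2B promoters. TTTCGCG was in 13 of 64 promoters and in 1.32% of all, and TTTGGCG in 1 of 64 and in 1.92% of all.

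Histone genes were down-regulated at both doses, in larger number and with a lower median at 80 nM. A gene was called down-regulated at 0.67-fold or less, or up-regulated at 1.5-fold or more, with an unadjusted limma p below 0.05. After 8 nM DIG-MSK, 20 of 62 members were down-regulated, where 2.85% of all genes were, and 1 was up-regulated, where 4.25% were (21 called in all, against 7.1% of all genes). Their median change was -0.49 on the log2 scale, and -0.06 over all genes tested. After 80 nM, 42 of 62 were down-regulated, where 16.2% of all genes were, and 3 were up-regulated, where 18.9% were (45 called, against 35.1%). The median was -1.19, and 0.08 over all genes. Both comparisons share the untreated arrays. From 8 to 80 nM, 33 members were down-regulated, where 14.1% of all genes were, and 0 were up-regulated by limma, where 19.7% were (33 called, against 33.7%). With an unadjusted p below 0.05 and no fold limit, 41 were lower, as were 24.5% of all genes, and 12 higher, as were 37.9%. The median was -0.66, and 0.12 over all genes. A stricter rule kept the fold limits and asked for a Benjamini-Hochberg adjusted p below 0.05 in the same limma fit. Its counts were 14 down and 1 up at 8 nM (background 1.4% and 3.71%). At 80 nM they were 42 down and 3 up (15.8% and 18.6%), and between the doses 33 down (13.8%). In all, 46 members were called in at least 1 comparison and 16 in none, and 17 were called down in all 3 comparisons. The shares of all genes for these joint counts were not computed, so that the counts are a description only. H1-1, H2AC1 and H4C16 passed the filter on dim probes only through the untreated arrays, where they were high, so that their calls are a description only. Of the other 59 members, 19 were down-regulated at 8 nM, 39 at 80 nM and 31 from 8 to 80 nM. In a fit of the 18844 genes well above background on all 9 arrays, 2.12%, 13.8% and 11.7% were.

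**Figure D1:**
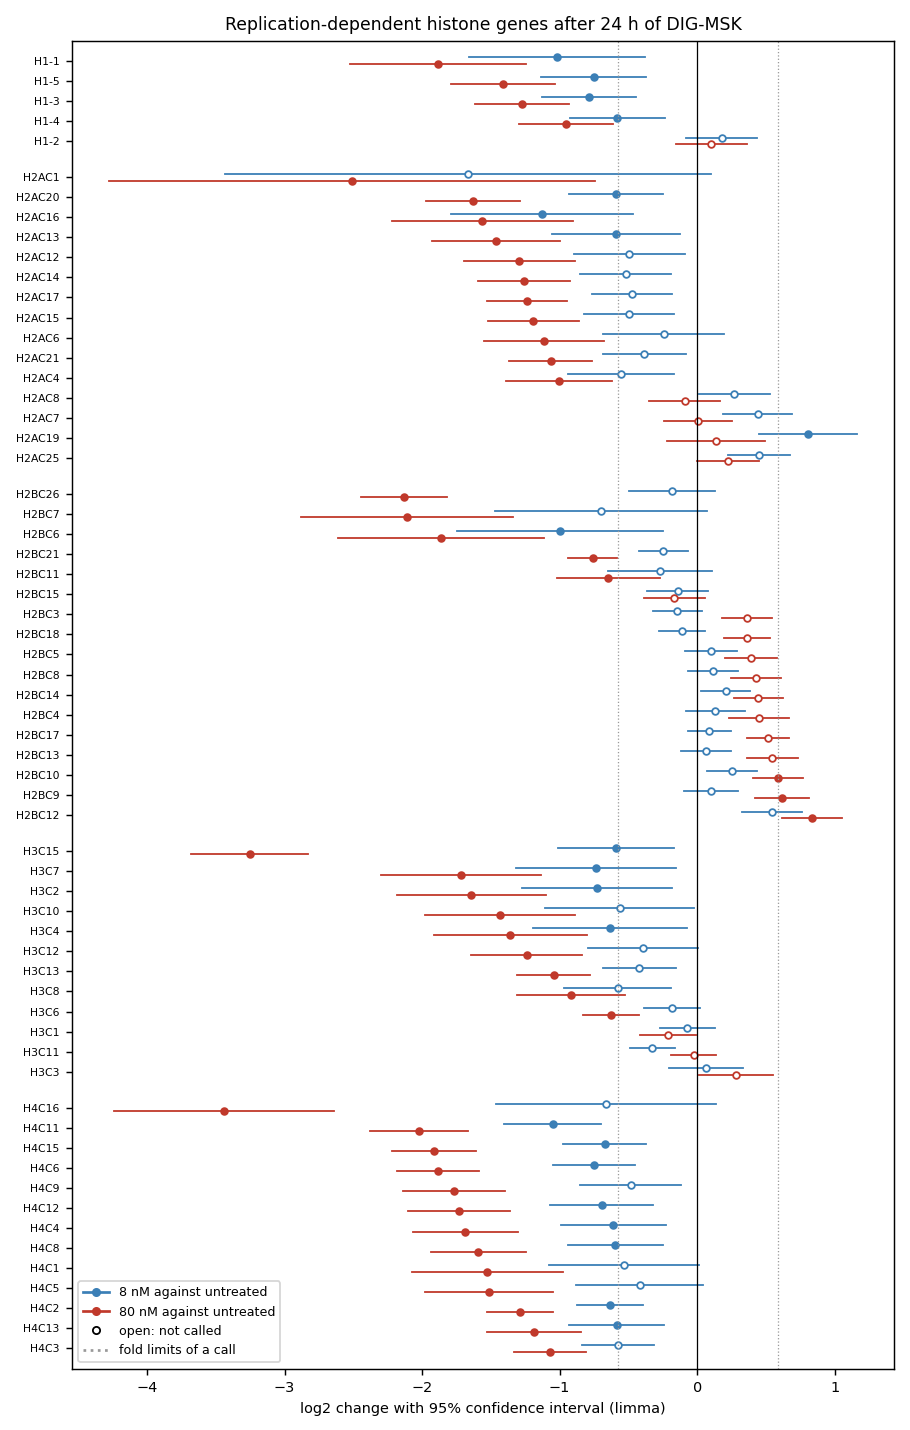
The log2 change of the 62 histone genes tested (points) with 95% confidence intervals (lines), at 8 nM (blue) and 80 nM (red) against untreated, grouped by family and ordered by the change at 80 nM; filled points were called and dotted lines mark the fold limits of 0.67 and 1.5. All 13 H4 genes lie left of the limit at 80 nM, while 12 of 17 H2B genes do not, and the 80 nM points of H1-1, H2AC1 and H4C16 stand for bounds only.

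Histone levels also moved together between arrays of one group. Untreated replicate 1 was the highest of its group for 58 of 62 members and replicate 2 the lowest for 58, whereas over all genes tested these arrays were highest and lowest for 40.5% and 34% of genes. At 80 nM replicate 2 was the highest for 53 members, against 39.7% of all genes. The median of the members, taken as the difference from each gene's untreated mean, was 0.17, -0.18 and -0.01 on the untreated arrays, -0.32, -0.64 and -0.44 on the 8 nM arrays and -1.29, -0.99 and -1.21 on the 80 nM arrays. The groups' medians did not overlap. The spread within the untreated group bears on the 8 nM count: without untreated replicate 1 it was 8 down-regulated members, and without untreated replicate 2 it was 31. Without replicate 2 of the 8 nM arrays it was 10. At 8 nM all 3 arrays lay below all untreated arrays for 34 members (18.4% of all genes) and above for 6 (15.7%). At 80 nM they lay below for 43 (31.5%) and above for 12 (40.6%). Against the 8 nM arrays, the 80 nM arrays lay below for 37 (25.3%) and above for 13 (39.6%), 11 of which were H2B genes.

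**Figure D2:**
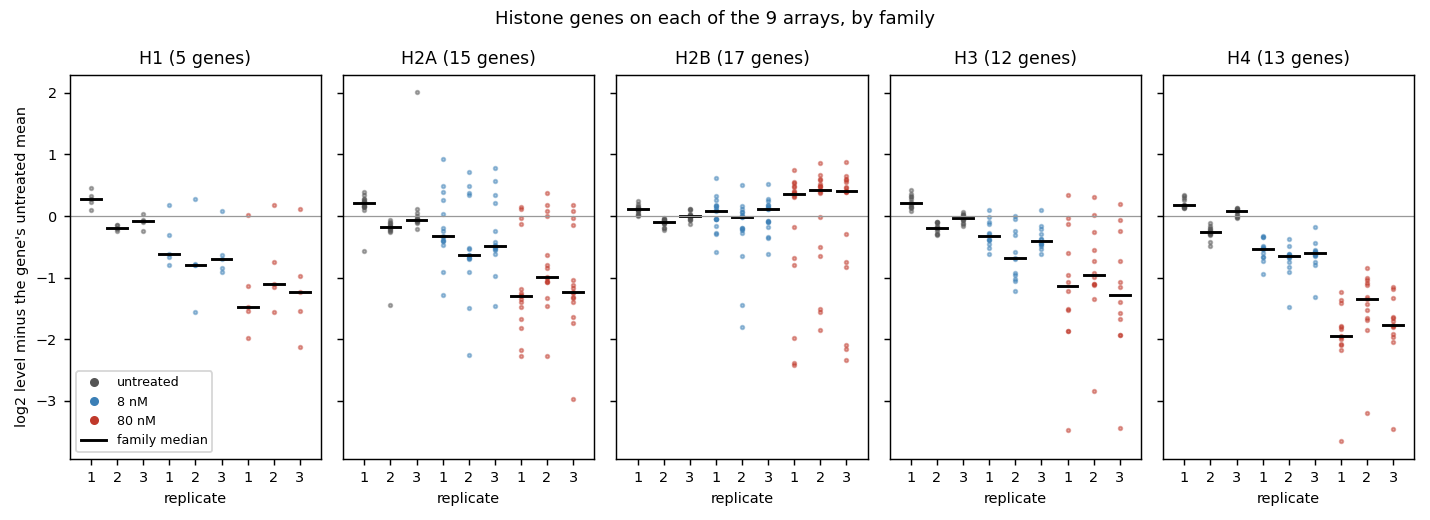
Level of each histone gene (dots) on the 9 arrays as the log2 difference from its own untreated mean, by family, with the family median on each array as a bar. The medians of H1, H2A, H3 and H4 step down from untreated to 8 nM to 80 nM, and the H2B medians at 80 nM are 0.36, 0.43 and 0.40.

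The H4 genes, most of which encode the same core histone from many copies, fell in every copy tested. At 80 nM the 12 that were well above background on every array were all down-regulated, with log2 changes from -1.07 (H4C3) to -2.02 (H4C11) and a median of -1.64, and for H4C16 only a bound holds. At 8 nM 8 of 13 were down-regulated, with a family median of -0.61: H4C2, H4C4, H4C6, H4C8, H4C11, H4C12, H4C13 and H4C15. H4C11 had the largest fall at 8 nM. Its relative level, the log2 intensity minus the 75th percentile of the array, was 3.40, 2.99 and 3.37 on the untreated arrays, 2.31, 2.35 and 1.94 on the 8 nM arrays, and 1.08, 1.40 and 1.21 on the 80 nM arrays. No 2 groups overlapped. H4C11 fell by 1.05 ± 0.15 (SE, n = 3 per group) at 8 nM (limma adjusted p = 0.00409) and its change was -2.02 ± 0.15 at 80 nM (limma adjusted p = 1.43e-05).

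H4C16 is the single member on chromosome 12. Its relative level was -3.84, -4.68 and -4.06 on the untreated arrays, -4.53, -5.66 and -4.38 on the 8 nM arrays and -7.85, -7.39 and -7.66 on the 80 nM arrays. It was well above background on 2 of 3 arrays at 8 nM and on none at 80 nM, so that only a bound holds. H4C16 was at least 3.4-fold lower at 80 nM than in untreated cells, and the untreated and 8 nM arrays overlapped. For such bounds the dim group is set, per array, at the lowest signal well above background or at the probe's own signal where that is higher. Falls were also seen on the other chromosomes, where separate clusters of 1 chromosome were counted together. At 80 nM 34 of 51 tested members on chromosome 6 and 7 of 10 on chromosome 1 were down-regulated, against 16.2% of all genes. Their medians were -1.19 and -1.06. At 8 nM 17 of 51 and 3 of 10 were down-regulated, against 2.85% of all genes. The chromosome 6 members include H1-1 and H2AC1, which passed the filter only through the untreated arrays, so that these counts are a description only.

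Of the 5 linker histone H1 genes tested, H1-5, H1-3 and H1-4 were down-regulated at 80 nM, with log2 changes of -1.41, -1.27 and -0.95, and also at 8 nM, with -0.75, -0.79 and -0.58. The H1-4 value at 8 nM is 1.49-fold lower (limma adjusted p = 0.0374) and lies at the edge of the limit: with 1.5-fold lower as the limit, chosen after seeing the data, H1-4 was not called and 19 members in place of 20 were down-regulated at 8 nM. H1-2 was called at neither dose, with 0.18 and 0.10 (limma adjusted p = 0.308 and 0.456). H1-1 had levels of -4.58, -5.22 and -5.27 on the untreated arrays, -5.82, -6.59 and -5.72 at 8 nM and -7.01, -6.58 and -7.14 at 80 nM. The untreated arrays were above both treated groups, and the treated groups overlapped. H1-1 was well above background on untreated arrays only and passed the filter through them, so no p is given. It was at least 1.67-fold lower at 8 nM and at least 1.91-fold lower at 80 nM.

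The core histone H3 genes fell in most copies. At 80 nM 9 of 12 were down-regulated, with a family median of -1.14, and H3C1 (-0.21), H3C3 (0.28) and H3C11 (-0.02) were not called. At 8 nM H3C2, H3C4, H3C7 and H3C15 were down-regulated by 0.59 to 0.74, with adjusted p of 0.0712 to 0.123, so that none of these 4 passed the adjusted threshold. H3C15, on chromosome 1, had the largest fall at 80 nM of the 59 members above background on all 9 arrays. Its relative level was 4.60, 4.18 and 4.50 on the untreated arrays, 3.81, 3.72 and 3.97 on the 8 nM arrays and 0.95, 1.59 and 0.98 on the 80 nM arrays. The groups stood apart, and H3C15 fell by 3.25 ± 0.19 (SE, n = 3 per group) at 80 nM, to 9.54-fold lower (limma adjusted p = 2.72e-06). H3C13, also on chromosome 1, had the largest fall at 8 nM among H3 members with an adjusted p below 0.05, though under 1.5-fold. Its levels were 5.11, 4.78 and 4.98 on the untreated arrays, 4.57, 4.38 and 4.67 at 8 nM and 3.89, 4.04 and 3.81 at 80 nM. H3C13 changed by -0.42 at 8 nM (limma adjusted p = 0.047) and by -1.04 at 80 nM (limma adjusted p = 0.000111). H3-4, a gene with an older name of the same series that lies outside the current symbols, was not called, with -0.08 and -0.17.

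Of the H2A genes, 11 of 15 were down-regulated at 80 nM, by 1.00 (H2AC4) to 1.63 (H2AC20) in 10 of them, while for H2AC1 only a bound holds, and the family median was -1.19. The rest, H2AC7, H2AC8, H2AC19 and H2AC25, had changes between -0.09 and 0.23. At 8 nM H2AC13, H2AC16 and H2AC20 were down-regulated and H2AC19 was up-regulated. H2AC16 had levels of -1.90, -2.32 and -1.95 on the untreated arrays, -2.98, -3.56 and -3.03 at 8 nM and -4.24, -3.53 and -3.09 at 80 nM. It fell by 1.13 ± 0.29 at 8 nM (SE, n = 3 per group, limma adjusted p = 0.036) and by 1.56 ± 0.29 at 80 nM, while the treated groups overlapped. H2AC19 had levels of 0.81, 0.24 and 0.20 on the untreated arrays, 1.35, 1.13 and 1.19 at 8 nM and 0.57, 0.60 and 0.51 at 80 nM. All 8 nM arrays were above the untreated ones, and H2AC19 rose by 0.81 ± 0.16 (limma adjusted p = 0.0128), but at 80 nM it was at 0.14 ± 0.16 (limma adjusted p = 0.462). H2AC1 had levels of -4.32, -5.18 and -1.72 on the untreated arrays, -5.03, -6.0 and -5.20 at 8 nM and -6.01, -6.02 and -6.71 at 80 nM. Its untreated replicate 3 stood far above the other arrays. H2AC1 was not well above background on any 80 nM array and passed the filter only through the untreated arrays, so no p is given. It was at least 4.47-fold lower at 80 nM, and at least 2.22-fold lower without untreated replicate 3.

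The H2B genes were called in both directions. At 8 nM H2BC6 was the 1 of 17 H2B genes called, with a fall of 1.00 (limma adjusted p = 0.0801), and with the replicate number as a block in a fit of the untreated and 8 nM arrays, chosen after seeing the data, 2 were called, H2BC6 and H2BC7 (-0.70). At 80 nM 5 were down-regulated, 3 were up-regulated and 9 were not called, and the family median was 0.39. Without the H2B genes, 37 of 45 members were down-regulated at 80 nM and 0 were up-regulated. The 3 that rose were H2BC12 (0.83), H2BC9 (0.62) and H2BC10 (0.59). Counting those not called, all 80 nM arrays were above all untreated arrays for 11 of 17 H2B genes, by at most 1.78-fold (H2BC12). The 5 that fell were H2BC26 (-2.13), H2BC7 (-2.11), H2BC6 (-1.86), H2BC21 (-0.76) and H2BC11 (-0.65). H2BC12 had levels of 3.74, 3.5 and 3.42 on the untreated arrays, 4.17, 4.06 and 4.07 at 8 nM and 4.31, 4.42 and 4.44 at 80 nM. The groups did not overlap, and H2BC12 rose by 0.83 ± 0.10 at 80 nM (SE, n = 3 per group, limma adjusted p = 0.000137). H2BC26 had levels of -1.12, -1.25 and -1.03 on the untreated arrays, -1.41, -1.32 and -1.21 at 8 nM and -3.52, -2.98 and -3.30 at 80 nM. The 80 nM arrays stood alone at the bottom, with a fall of 2.13 ± 0.14 (limma adjusted p = 5.24e-06), while at 8 nM the change was -0.18 (limma adjusted p = 0.388). The rises at 80 nM depended on the scaling: with spike-in scaling 0 H2B genes were called up and the H2B median was 0.11. Without untreated replicate 2, 1 H2B gene was called up.

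Many H2A and H2B genes lie in pairs that are read outward from neighbouring starts. In 10 such pairs the starts lay 194 to 246 bases apart, and both genes were tested in 9. The promoter entries of these 9 pairs share 255 to 293 bases, read on opposite strands. The 2 genes of a pair often had unlike changes. At 80 nM the H2A gene was down-regulated and the H2B gene was not called in 5 pairs. In H2AC13 and H2BC13, whose shared promoter is printed above, the changes were -1.46 and 0.55. In H2AC17 and H2BC17 they were -1.24 and 0.52, in H2AC14 and H2BC14 -1.26 and 0.44, in H2AC6 and H2BC4 -1.11 and 0.45, and in H2AC15 and H2BC15 -1.19 and -0.17. The second probe of H2AC6 had 0.18. The reverse was seen in 2 pairs, H2AC25 with H2BC26 (0.23 and -2.13) and H2AC7 with H2BC7 (0.01 and -2.11). Both fell in H2AC20 with H2BC21 (-1.63 and -0.76), and neither was called in H2AC8 with H2BC8 (-0.09 and 0.43). A second H2BC21 probe, too dim to be tested, was higher at 80 nM and is described below. The 95% confidence intervals of the 2 changes did not overlap in any of the 9 pairs, and the difference within a pair was not tested.

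H2AC13 had levels of 1.69, 1.37 and 1.46 on the untreated arrays, 1.18, 0.60 and 0.98 at 8 nM and -0.17, 0.45 and -0.14 at 80 nM. H2BC13 had levels of 4.0, 3.77 and 3.86 on the untreated arrays, 3.97, 3.87 and 4.0 at 8 nM and 4.36, 4.46 and 4.46 at 80 nM. On every 80 nM array H2AC13 was below and H2BC13 above its own untreated range. This pair was chosen after its values were seen, and the levels of 2 probes are not compared with each other.

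**Figure D3:**
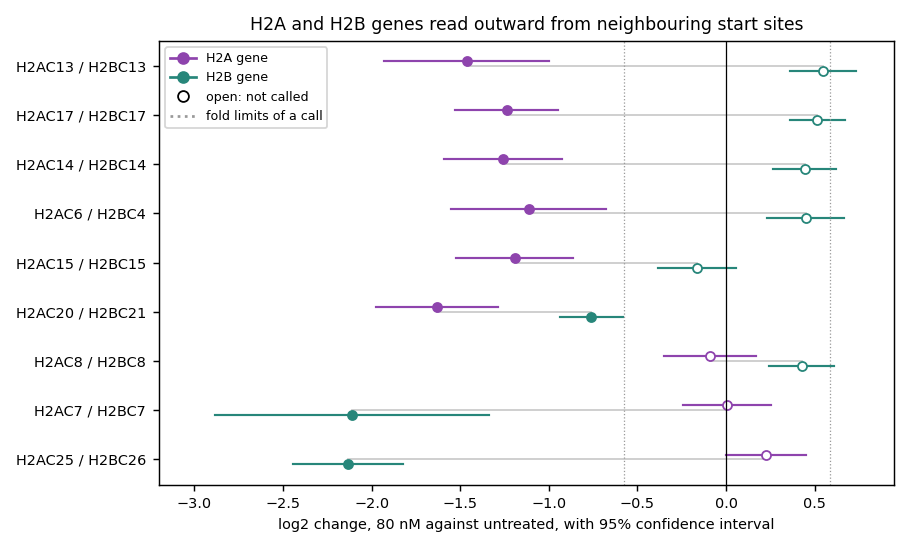
The log2 change at 80 nM against untreated with its 95% confidence interval for the H2A gene (purple) and the H2B gene (green) of each of the 9 pairs; filled points were called. In 5 pairs the H2A point lies left of the lower fold limit with an open H2B point, and in 2 pairs the positions are exchanged.

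The promoter motifs can be set beside the changes at 80 nM for the 57 tested members with an entry. Of 15 members with GGGCGG in a promoter, 14 were down-regulated, with a median of -1.69, and of 42 without it 24 were, with a median of -0.96. Families and motifs run together, since 10 of these 15 were H1 or H4 genes. Within H4 all 7 genes with the motif and all 4 without it were down-regulated, with medians of -1.89 and -1.55. Within H3 the order was turned: 2 of 3 genes with the motif and 6 of 7 without it were down-regulated, with medians of -1.04 and -1.36. Of 25 members with ATTTGCA 13 were down-regulated and 3 were up-regulated, and of 32 without it 25 were down-regulated and none up-regulated. H3C4 stands among the 25 through the entry it shares with H2AC7, and with its own first start alone the counts were 12 and 3 of 24 and 26 and 0 of 33. Here too families and motifs run together, since 13 of the 25 were H2B genes and no H1 or H4 gene had ATTTGCA. Within H2B 4 of 13 with it were down-regulated and 3 up-regulated, and of 4 without it 1 was down-regulated and none up-regulated. Within H2A it was 8 of 10 down-regulated with ATTTGCA and 2 of 4 without it, and within H3 1 of 2 and 7 of 8. H1-1, H2AC1 and H4C16, which passed the filter on dim probes only through the untreated arrays, are counted in this paragraph. H1-1 and H4C16 are among the 14 with GGGCGG and H2AC1 among the 13 with ATTTGCA. These counts and medians are therefore a description only. A match is only a match of letters, and no factor binding was measured.

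Some members are described as also giving polyadenylated transcripts, and the list used here holds H1-2, H2AC6, H2BC4, H2BC5, H2BC12 and H2BC21. At 80 nM 2 of these 6 were down-regulated (H2AC6 and H2BC21) and 1 was up-regulated (H2BC12), with a median of 0.25. Of the other 56 members 40 were down-regulated and 2 were up-regulated, with a median of -1.25. By the same rule 16.2% of all genes fell and 18.9% rose. The 40 include H1-1, H2AC1 and H4C16, which passed the filter on dim probes only through the untreated arrays. At 8 nM limma called 0 of the 6, with a median of 0.12. Among the 6, 1 was higher and 1 lower at an unadjusted limma p below 0.05, against 14.4% and 16.3% of all genes. Of the other 56 members 20 fell, H1-1 among them, and 1 rose, with a median of -0.53. The matching shares of all genes were 2.85% and 4.25%. Counts and medians that include H1-1, H2AC1 or H4C16 are a description only. Since 4 of these 6 are H2B genes, the list overlaps the H2B family.

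Where a gene had 2 probes, they did not always give the same change. For H2AC6 the probe used gave -1.11 at 80 nM and the other probe 0.18. For H3C10 they gave -1.43 and -0.66, and for H2BC12 0.83 and 0.57. For H2BC18 the probe used, of NM_001161334, gave -0.11 at 8 nM and 0.36 at 80 nM. The second H2BC18 probe, of the transcript NM_001024599, was not well above background on the untreated arrays and passed the filter only through the treated arrays, so no p is given. It was at least 2.26-fold higher at 8 nM and at least 1.94-fold higher at 80 nM. Both probes of H2AC17, H4C1, H4C4, H4C12 and H4C13 fell at 80 nM. A second H2BC21 probe did not pass the filter. It was well above background on 0 untreated, 0 8 nM and 2 80 nM arrays. Its mean level was -7.78 untreated, -5.25 at 8 nM and -5.37 at 80 nM, while the H2BC21 probe used fell.

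Against untreated, the replication-independent histone variants stayed within the fold limits of a call at both doses. Of 19 listed genes 14 were tested, and limma called 0 at 8 or at 80 nM against untreated, with medians of -0.07 and -0.06. Of all genes 7.1% were called at 8 nM and 35.1% at 80 nM. From 8 to 80 nM 1 of the 14 was down-regulated, where 14.1% of all genes were, and 0 were up-regulated, where 19.7% were. With an unadjusted limma p below 0.05 and no fold limit, 1 was higher and 4 lower at 8 nM against untreated. At 80 nM against untreated 4 were higher and 3 lower. Of all genes tested 14.4% were higher and 16.3% lower at 8 nM by this measure, and 36% and 27.3% at 80 nM. H2AZ1, which replaces H2A at promoters, had -0.20 and 0.09, and H2AX, which is phosphorylated at DNA breaks, had -0.38 and -0.01. H3-3A and H3-3B, which encode the same H3.3 protein, had -0.08 and -0.13 at 8 nM and -0.21 and 0.28 at 80 nM.

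The genes that make and process histone mRNA were not called by limma at 8 nM (0 of 22), where 4.25% of all genes were up-regulated and 2.85% down-regulated. At an unadjusted limma p below 0.05, 3 were higher and 2 lower, against 14.4% and 16.3% of all genes. At 80 nM 1 of 22 was up-regulated and 4 were down-regulated, where 18.9% and 16.2% of all genes were, with a median of 0.04. MBLAC1, a nuclease of histone pre-mRNA, rose by 0.68. UPF1, which takes part in histone mRNA decay, fell by 0.95, WDR33 and FIP1L1 of the polyadenylation machinery by 0.86 and 0.71, and POU2F1 by 0.78. SLBP had -0.15 at 8 nM and 0.54 at 80 nM (limma adjusted p = 0.000437), below the 1.5-fold limit. NPAT had 0.29 and 0.16, CASP8AP2, a partner in the histone locus body, -0.01 and 0.18, and HINFP, an activator of H4 genes, 0.39 and 0.08. Of the U7 particle LSM10 had -0.08 and 0.41, LSM11 -0.73 and -0.43, and ZNF473 -0.07 and -0.51. LSM11 passed the fold limit at 8 nM but not the test (limma adjusted p = 0.306).

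Histone chaperones, which carry histones to DNA, were not called by limma at 8 nM (0 of 21), where 4.25% of all genes were up-regulated and 2.85% down-regulated. At an unadjusted limma p below 0.05, 1 was higher and 10 were lower, against 14.4% and 16.3% of all genes. At 80 nM 2 rose and 4 fell, where 18.9% and 16.2% of all genes did, with a median of 0.04. HIRA, the chaperone of H3.3, fell by 2.85 (limma adjusted p = 1e-07), and CHAF1A, the large subunit of the assembly factor of replicated DNA, by 1.12 (limma adjusted p = 1.75e-05). NASP and HJURP fell by 0.65 each. ASF1B rose by 0.75 and SUPT16H of the FACT complex by 0.66.

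S phase genes had a median below that of all genes at 8 nM and near it at 80 nM. At 8 nM 2 of 24 were down-regulated, where 2.85% of all genes were, E2F1 (-0.67) and the DNA polymerase subunit POLA1 (-0.65), with a list median of -0.37. At an unadjusted p below 0.05 and no fold limit, 20 of the 24 were lower at 8 nM, as were 16.3% of all genes, and 1 was higher, as were 14.4%. At 80 nM 4 were up-regulated, CDK2 (1.14), CCNE2 (1.08), RRM2 (1.03) and PCNA (0.80), and MCM5 of the replicative helicase was down-regulated (-0.93), with a list median of 0.13. Of all genes 18.9% were up-regulated and 16.2% down-regulated at this dose. From 8 to 80 nM 8 of 24 rose, where 19.7% of all genes did, and 0 fell, where 14.1% did, with a median of 0.46. At an unadjusted limma p below 0.05, 17 were higher and 1 was lower, against 37.9% and 24.5% of all genes. The part of this shift in the histone changes was not tested.

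**Figure D4:**
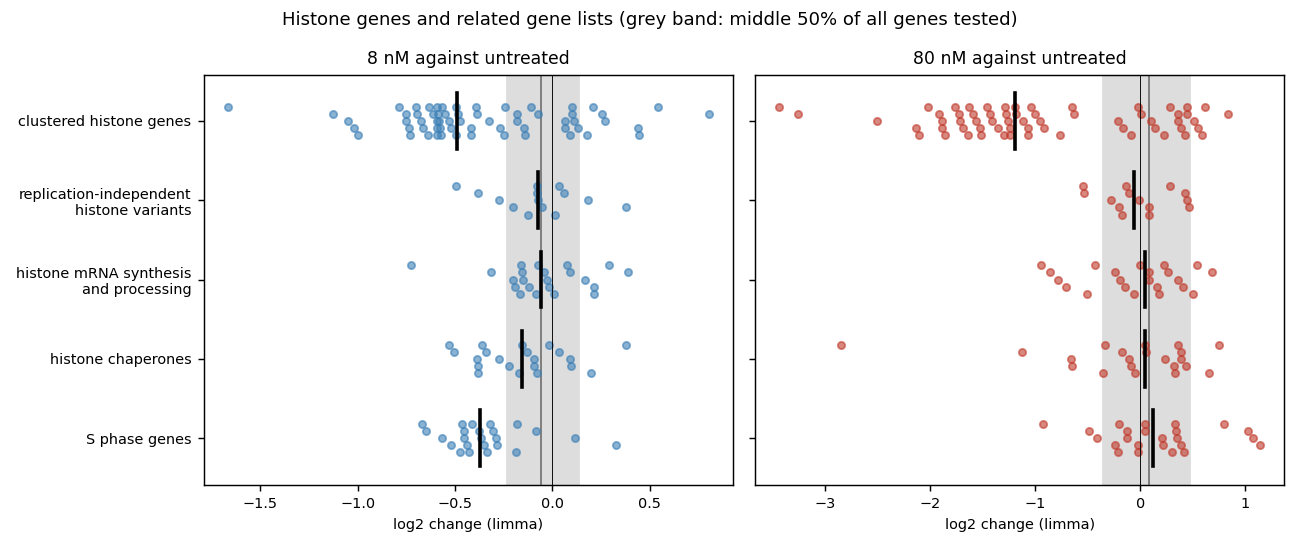
Log2 changes against untreated at 8 nM (left) and 80 nM (right) for the clustered histone genes and 4 related lists; each dot is a gene, black bars are list medians and the grey band holds the middle 50% of all genes tested. At 80 nM the histone median is -1.19 and the other list medians lie between -0.06 and 0.13.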

How the data were processed

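All 9 arrays were used, 3 for each of untreated, 8 nM and 80 nM, grouped by the submitters' labels. The authors labelled the RNA, scanned one-colour arrays and extracted each spot's intensity with Feature Extraction 10.7.3.1; the deposited processed intensity is background-corrected and not scaled between arrays. The authors' table of log2 values was used as an alternative only. From the intensity, log2 values minus each array's 75th percentile over gene spots were computed, without control and outlier spots. Spots of a probe were averaged. A probe had to be well above background on every array of 1 group or more, and each gene took its brightest probe; 22 kept probes lacked a value on an array and were left out. The 75th percentile lay between 825.9 and 1166, 24814 to 27151 probes were well above background, and 0 were saturated. The net signal of negative controls was 31.14 to 38.59 on slide 1 and 22.09 to 22.68 on slide 2. The number of arrays limits the precision.

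All 9 arrays were fitted with limma 3.58.1 (R 4.3.3), and p-values were adjusted by Benjamini-Hochberg over 21817 genes. The fold and p limits of a call are those named in the study's methods. RefSeq symbols named 25713 of 26576 accession probes, and no gene coordinates other than those of promoters were used. The fit was tested on simulated data with some genes changed 2-fold. Of these, 73% to 73.5% were recovered in the right direction, beyond the fold limits and at a limma adjusted p below 0.05.

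Untreated and 8 nM arrays of the same replicate number had correlations of deviations from the group means of 0.114, 0.101 and 0.163. Between same-number arrays that include 80 nM they were -0.124 to 0.016. Arrays of unlike numbers reached 0.118 (8 nM replicate 1 with 80 nM replicate 2) and 0.125 (8 nM replicate 2 with 80 nM replicate 3). No batch is stated, so that pairing by replicate number is not established. The main fit has no block. Alternatives were another background correction (on the median spot signal), scalings, filters, probe rules, sample sets, blocks and leaving out each array. The members and lists were chosen with earlier results of these data known. Named members are those called in a comparison; values on every array are given for the largest significant rise and fall per family and dose, and for 1 pair chosen later. Of other lists, named are the NPAT, SLBP and U7 genes, the variants given (1 more is not reported here), and at most 4 called genes per comparison. Motif counts used both strands of the RefSeq promoters of GRCh38.p14.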

Additional observations from a re-analysis of the deposited data

How the results depend on the processing

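The counts of histone genes kept within 1.5 times of those reported under most alternatives, with exceptions at 8 nM, under spike-in scaling, and in the up-regulated members at 80 nM, which went from 3 to 1 without untreated replicate 2. The 8 nM fall covered 12 members with quantile normalization, 13 with the authors' log2 values and 10 with spike-in scaling (12 called in all). Spike-in scaling put the members' median at -1.47 for 80 nM against untreated and at -1.02 for 80 nM against 8 nM, while the median of all genes moved from 0.08 to -0.20 and from 0.12 to -0.24; against that shift the members stayed lower. The 42 members called down at 80 nM were again 42 in number, and up-regulated members went from 3 to 0. Leaving out 1 array at a time gave 10 to 32 called and 8 to 31 down at 8 nM, both lowest without untreated replicate 1 and highest without untreated replicate 2, with medians of -0.59 to -0.36. At 80 nM it gave 43 to 45 called and 41 to 42 down, with medians of -1.28 to -1.05, and between the doses 29 to 35 called and down, with medians of -0.71 to -0.60. Arms of 2 arrays took their spread from all groups.

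With the replicate block over all arrays 21, 45 and 33 members were called in the 3 comparisons, as without it. A replicate block of the untreated and 8 nM arrays alone was chosen after seeing the data. Only between these groups were the correlations of all 3 equal replicate numbers positive. With this block 24 were called, 23 of them down, and H2AC1, H2BC7 and H4C16 newly passed the threshold. H2AC1 and H4C16 passed the filter on dim probes only through the untreated arrays, so that their calls are a description only. The blocks changed no other call. The second probe of H2AC6 reversed its change, to 0.18 at 80 nM against untreated and 0.63 at 80 nM against 8 nM; the cause was not tested. Among all 3388 recomputed values of named genes, 97 no longer passed the threshold, 67 newly passed and 2 reversed. The mean spot signal planned for normexp was not used here, and the median spot signal took its place, giving 19, 43 and 29 called. With 1.5-fold lower as the limit of a fall, chosen after seeing the data, 19, 42 and 33 members were down.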
